A study of Homo sapiens with 5 samples.

Results

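The 56 genes described here build the mitotic spindle, attach chromosomes to it and divide the cell. They were taken by GENCODE symbol from the 64252 gene rows of a count table of RPE-1 cells, an hTERT-immortalized line of human retinal pigment epithelial origin with wild-type genotype in the labels. All 56 passed the filter on low counts. The 3 control libraries (siCtrl) came from cells given a control siRNA and the 2 knock-down libraries (siFAM53C) from cells given an siRNA pool against FAM53C, and polyA RNA was collected 48 hr after transfection. The labels give 5 µM for the siRNA and do not say whether this is the stock or the final concentration. No single siRNA of the pool was sequenced on its own, and the labels do not say whether libraries of 1 condition came from separate cultures, so p-values measure the spread between these libraries, which may be technical. The comparison asks how mRNAs of the mitotic machinery differed once FAM53C, studied for its part in the G1/S switch, had been depleted.

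Mitotic genes are transcribed in a wave that peaks in G2 and mitosis. In G0 and G1 the DREAM complex keeps many of them silent, and later B-MYB with the MuvB core, and then FOXM1, activate them. DREAM and MuvB meet these promoters at a short element called the cell cycle genes homology region, with the letters TTTGAA or TTCGAA, and NF-Y binds CCAAT boxes a few helical turns upstream. RNA from a mixed culture therefore carries these mRNAs in proportion to how many cells are in G2 and mitosis as well as to how much each cell makes, and bulk counts cannot tell fewer such cells from less RNA per cell.

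The promoters of these genes are described first. RefSeq windows (GRCh38.p14, from 250 bases before to 50 bases after a gene's start) were found for 45 of the 56 genes, in 50 windows. On either strand, TTTGAA was present in 36 of the 50 windows (72%), against 15.2% of all 35116 windows, and TTCGAA in 2 (4%), against 1.45%. CCAAT was present in 35 (70%), against 34.6%. Windows with both a CCAAT and 1 of the other motifs numbered 28 (56%), against 6.38% of all windows. The motifs were also frequent in a list of 57 further genes of mitosis, described below. Of its 58 windows, 41.4% held TTTGAA, 13.8% TTCGAA and 58.6% CCAAT. The 100 bases before the start are given for 5 genes whose windows hold both kinds, and for SPC24, whose window holds CCAAT alone. All lines read 5′ to 3′ on the gene's strand, and capitals mark the motifs. Where a motif lies on the other strand, TTTGAA reads as TTCAAA. The reverse complement of CCAAT is ATTGG.
PLK1, chr16:23678789-23678888, plus strand: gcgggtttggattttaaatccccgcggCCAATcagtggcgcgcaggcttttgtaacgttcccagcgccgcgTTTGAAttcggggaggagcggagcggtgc
CKS1B, chr1:154974581-154974680, plus strand: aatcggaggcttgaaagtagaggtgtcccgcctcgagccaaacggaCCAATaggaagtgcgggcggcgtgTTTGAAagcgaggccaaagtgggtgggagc
CKS2, chr9:89311095-89311194, plus strand: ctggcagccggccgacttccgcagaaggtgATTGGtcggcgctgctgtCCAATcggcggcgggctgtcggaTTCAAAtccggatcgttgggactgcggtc
MKI67, chr10:128126424-128126523, minus strand: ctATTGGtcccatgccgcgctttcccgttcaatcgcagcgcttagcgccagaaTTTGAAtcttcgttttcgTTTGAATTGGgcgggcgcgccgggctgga
CDCA8, chr1:37692416-37692515, plus strand: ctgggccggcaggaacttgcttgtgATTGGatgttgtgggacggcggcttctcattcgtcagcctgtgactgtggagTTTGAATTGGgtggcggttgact
SPC24, chr19:11155783-11155882, minus strand: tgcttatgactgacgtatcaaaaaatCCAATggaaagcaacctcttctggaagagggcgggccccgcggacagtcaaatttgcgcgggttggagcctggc

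In these windows the first letter of TTTGAA or its complement lay at -29 in PLK1, -30 in CKS1B, -29 in CKS2, -47 and -29 in MKI67 and -23 in CDCA8. In MKI67 and CDCA8 the TTTGAA shares its last letter with an ATTGG. A match of letters is a description and not a bound site. Fold changes were set beside the motifs as a description, with no test. The 36 members with TTTGAA or TTCGAA had a median log2 fold change of -0.15, and the 9 without had -0.087. Over all genes tested that had a window, the medians were -0.032 with (1682 genes) and 0.020 without (8951 genes). The 28 members with both kinds of motif in 1 window had a median of -0.128, and the 17 others had -0.131. Replicate 2 of siFAM53C stood above replicate 1 by a median of 0.26 in members with TTTGAA or TTCGAA and 0.27 without. For siCtrl replicate 3 above the mean of replicates 1 and 2, these medians were 0.29 and 0.18.

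The deposited counts per library were between 19260124 and 25615415. They are given below in CPM, counts scaled to a common library size with TMM factors, and fold changes come from the quasi-likelihood test of edgeR, adjusted by Benjamini-Hochberg over the 15341 genes that passed the filter (called where the adjusted p was under 0.05). The target, FAM53C (ENSG00000120709), stood at 60.9, 59.7 and 57.6 CPM in siCtrl replicates 1, 2 and 3 and at 14.2 and 22.3 CPM in siFAM53C replicates 1 and 2, a log2 fold change of -1.71 (SE 0.19, edgeR adjusted p = 0.003625). Of its exon bases, 704 are also covered by genes on the opposite strand, among them CDC25C, itself a mitotic gene, and the counting is not stated to use strand. Among markers of the cell type, KRT8 (236 to 328 CPM) and KRT18 (148 to 182 CPM) were abundant and MITF and OTX2 were present, whereas RPE65 had 0 counts and RLBP1, TYR and BEST1 stayed under 1 CPM. KRT8 was higher in both siFAM53C libraries (319 and 328 CPM) than in the siCtrl libraries (285, 257 and 236 CPM), at 0.32 on the log2 scale (edgeR adjusted p = 0.222, or 0.0116 when the split described next is a term of the fit), and its part in the results was not tested. OTX2 was lower in both (13.5 and 14.4 against 17.1, 14.7 and 16.2 CPM, edgeR adjusted p = 0.607), and KRT7, KRT18 and MITF overlapped. The leukocyte and endothelial genes CD3E and CDH5 had 0 counts, PTPRC ranged from 0.10 to 1.05 CPM and PECAM1 from 0.21 to 0.85 CPM.

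The libraries also parted across the conditions. The first principal component carried 39.8% of the variance, and along it siCtrl replicate 3 lay with siFAM53C replicate 2. These libraries, whose column names carry the number 3, lay apart from siCtrl replicates 1 and 2, with siFAM53C replicate 1 between. The labels do not say what the number marks. Each comparison was therefore also made within the sides of this split and with a term for it in the fit, both chosen after seeing the data. By its column number, siFAM53C replicate 1 was put with siCtrl replicates 1 and 2. The first component does not place it there, with 0.26 against -31.5 and -47.4 for those and 33.7 and 44.9 for the other side. The term comes from the same counts that are tested, so its adjusted p-values are descriptions and no independent check.

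The mitotic genes as a group were somewhat lower in siFAM53C, and their spread among libraries of 1 condition was larger than that difference. Of the 56 genes, 50 had a log2 fold change below 0, where 7391 of all 15341 genes did (48.2%), and their median was -0.15, where that of all genes was 0.016. None passed the threshold of the condition-only fit in either direction, where 3.47% of all genes were called lower and 0.489% higher. By the unadjusted p (under 0.05), 8 members were lower and 0 higher, where 10.5% and 6.61% of all genes were. The 8 are 14.3% of the members. DESeq2 called 3 lower (KNL1, BIRC5 and TPX2, 5.36% of the members) and 0 higher, beside a background of 6.98% and 2.02%.

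Summed over the 56 genes, the level was 9879, 10116 and 12999 CPM in the siCtrl libraries and 8754 and 11011 CPM in the siFAM53C libraries. The highest sum was that of siCtrl replicate 3 and the lowest that of siFAM53C replicate 1, while siFAM53C replicate 2 exceeded siCtrl replicates 1 and 2, so the groups overlapped. Taking each gene's log2 CPM minus its mean over the 5 libraries, the median was -0.034, -0.015 and 0.24 in siCtrl and -0.25 and 0.067 in siFAM53C. In siCtrl replicate 3, 52 of the 56 genes were above their mean, and in siFAM53C replicate 1 all 56 were below it.

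**Figure D1:**
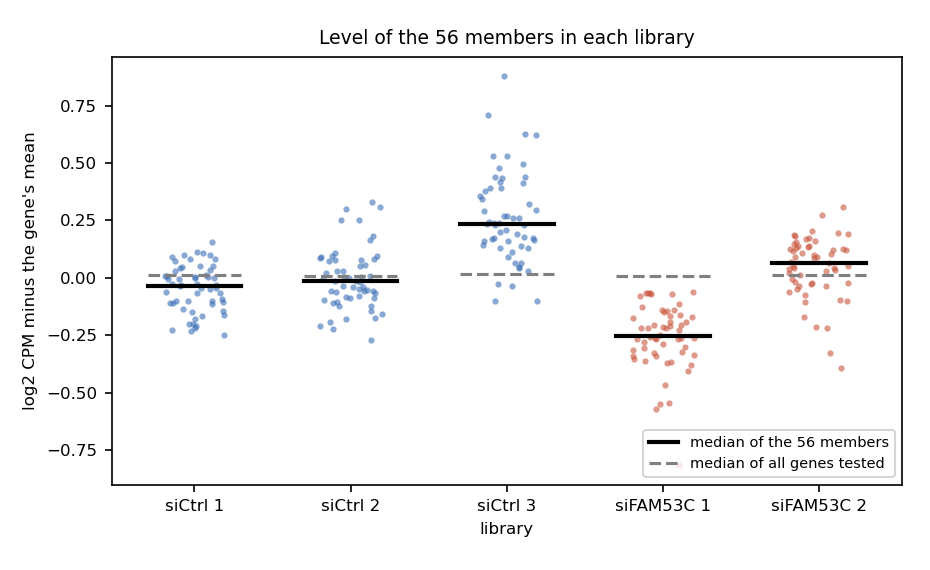
Level of the 56 genes in each library, as log2 CPM minus the gene's mean over the 5 libraries (y axis), with 1 point per gene, a solid line at the members' median and a dashed line at the median of all genes tested. The members' medians run from -0.25 in siFAM53C replicate 1 to 0.24 in siCtrl replicate 3, while those of all genes stay between 0.0078 and 0.018.

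The group median rested on these libraries. Without siFAM53C replicate 1 it was -0.0054, with 28 of 56 genes below 0, and without siCtrl replicate 3 it was -0.036, with 34 below 0. Without siFAM53C replicate 2 it was -0.31, and all 56 were below 0.

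The differences between libraries of the same condition were shared from gene to gene. Between siFAM53C replicates 2 and 1, all 56 genes were higher in replicate 2, by a median of 0.26 on the log2 scale, where 7780 of the 15341 genes were higher and the median was 0.0054. Between siCtrl replicate 3 and the mean of replicates 1 and 2, 50 of 56 were higher, by a median of 0.28, against 0.0025 over all genes. The 2 differences come from separate libraries, and over the 56 genes they had a Pearson r of 0.64 and a Spearman rho of 0.60, against 0.37 and 0.46 over all genes. These are descriptions across genes of the same libraries, which are not independent replicates. The libraries were set together by the first principal component of these counts, so some positive correlation comes with that choice. Both differences were above 0 in 50 members (89.3%) and in 35.0% of all genes.

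**Figure D2:**
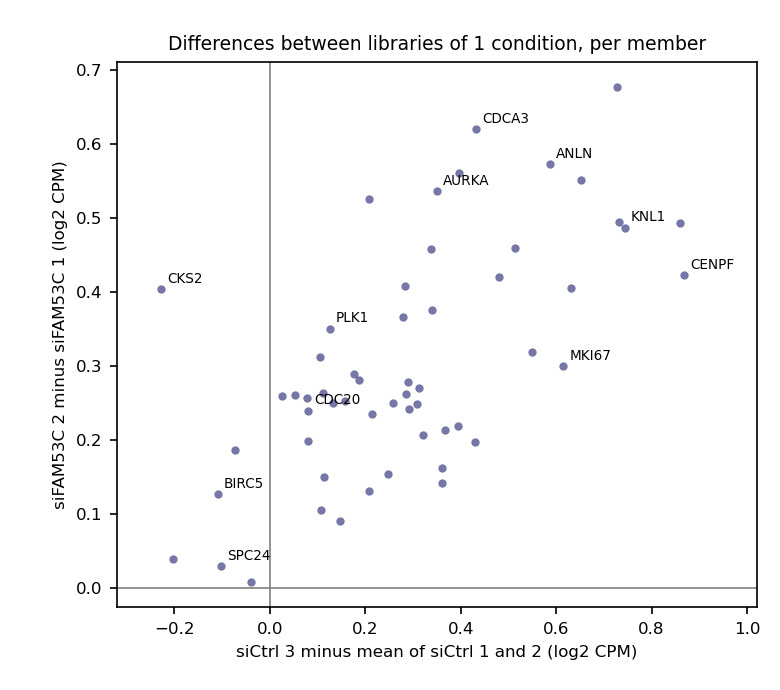
Each point is 1 of the 56 genes, with the difference between siCtrl replicate 3 and the mean of siCtrl replicates 1 and 2 on the x axis and that between siFAM53C replicates 2 and 1 on the y axis, both in log2 CPM. No point lies below 0 on the y axis, and 50 points lie above 0 on both, with CENPF and KNL1 far to the right and BIRC5, SPC24 and CKS2 to the left of 0 on the x axis.

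Within the sides of the split, siFAM53C was below siCtrl for most members. Replicate 1 of siFAM53C was below the mean of siCtrl replicates 1 and 2 for 51 of 56 genes (median -0.20), and replicate 2 was below siCtrl replicate 3 for 47 (median -0.17), the medians of all genes being 0.013 and 0.013. In 44 members both were below 0, where this held for 5086 of the 15341 genes. The second contrast sets 1 library against 1 and has no replicate check. With a term for the split, 17 of the 56 (30.4%) were called lower and 0 higher, where 10.7% of all genes were called lower and 6.76% higher, and the members' median was -0.19. This fit leaves 2 residual degrees of freedom, and its term was chosen from these same counts. What sets the sides apart was not tested.

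**Figure D3:**
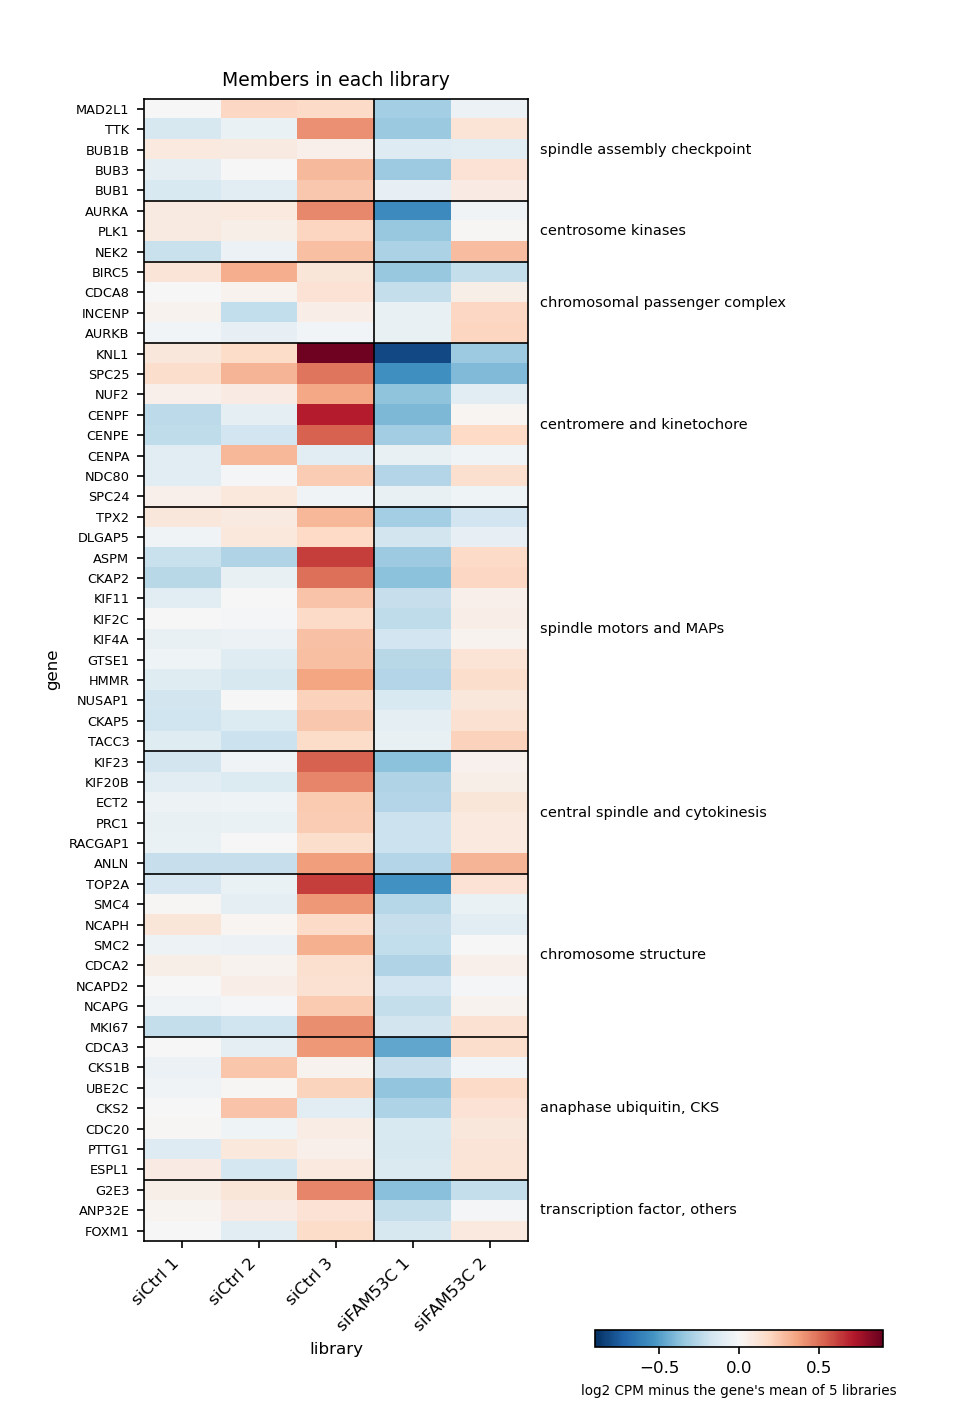
Log2 CPM minus the gene's mean over the 5 libraries for each of the 56 genes (rows, ordered by structure and then by fold change) in the 3 siCtrl and 2 siFAM53C libraries (columns), red above and blue below the mean. The column of siCtrl replicate 3 is red for 52 genes and that of siFAM53C replicate 1 is blue for all 56, with KNL1 spanning the widest range.

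The spindle assembly checkpoint holds back anaphase until every kinetochore is attached. All 5 of its genes here (BUB1, BUB1B, BUB3, MAD2L1 and TTK) were below 0 on the log2 scale. Their median was -0.18, and 0 passed the test. MAD2L1, which with CDC20 forms part of the inhibitor of the anaphase-promoting complex, stood at 99.6, 113 and 112 CPM in siCtrl and 80.5 and 96.2 CPM in siFAM53C. The groups did not overlap, and the log2 fold change was -0.29 (SE 0.12, edgeR adjusted p = 0.273). It was called with the term for the split (-0.32, edgeR adjusted p = 0.0204). BUB1B, which encodes BUBR1, had the tightest values of the group, 127, 126 and 123 CPM against 110.0 and 111 CPM, a log2 fold change of -0.18 (SE 0.094, edgeR adjusted p = 0.386) that passed in neither fit. BUB3, the most abundant of the group by CPM, overlapped between the groups at 411, 437 and 535 CPM and 348 and 479 CPM.

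The kinases of the centrosome drive entry into mitosis and the ripening of spindle poles. AURKA, Aurora A, had 126, 126 and 161 CPM in siCtrl and 80.0 and 116 CPM in siFAM53C. Both siFAM53C values were below the 3 of siCtrl, the log2 fold change was -0.49 (SE 0.19, edgeR adjusted p = 0.240), and with the term for the split it was -0.57 (edgeR adjusted p = 0.000152). PLK1, Polo-like kinase, had 251, 245 and 270.3 CPM against 187 and 239 CPM, again without overlap, at -0.26 (SE 0.13, edgeR adjusted p = 0.3735) and -0.31 with the term (edgeR adjusted p = 0.0165). In both genes siFAM53C replicate 1 was far below replicate 2, by 0.54 for AURKA and 0.35 for PLK1 on the log2 scale. NEK2, the remaining gene, named here after its value was seen, was at 0.0035.

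The chromosomal passenger complex places Aurora B kinase at centromeres and later at the midzone, and its 4 subunits divided. BIRC5, which encodes survivin, stood at 192, 223 and 192 CPM in siCtrl and 140.0 and 153 CPM in siFAM53C, so the groups were apart. Its log2 fold change of -0.47 (SE 0.12, edgeR adjusted p = 0.0794) was past the threshold by DESeq2 (adjusted p = 0.0155), with the term for the split (edgeR adjusted p = 0.00214) and without siCtrl replicate 3 (edgeR adjusted p = 0.0251). Unlike most members it did not follow the split, with siCtrl replicate 3 at -0.11 against the mean of replicates 1 and 2. CDCA8, which encodes borealin, overlapped at 98.1, 99.7 and 107 CPM and 84.2 and 101 CPM, a log2 fold change of -0.13 (SE 0.12, edgeR adjusted p = 0.645). The kinase AURKB (0.11) and the scaffold INCENP (0.10), named after their values were seen, were among the 6 members above 0, and neither was called in any fit.

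The centromere and kinetochore genes held the lowest value of all 56. KNL1 (ENSG00000137812, chromosome 15, 40594020 to 40664342, plus strand) encodes the outer kinetochore scaffold that recruits BUB1, BUB3 and BUBR1. It stood at 67.9, 71.0 and 116 CPM in siCtrl and at 35.9 and 50.4 CPM in siFAM53C, 85.1 ± 27.1 (SD, n = 3) against 43.2 ± 10.2 (SD, n = 2). The log2 fold change was -0.98 (SE 0.28, edgeR adjusted p = 0.138). siCtrl replicate 3 alone made most of the spread within siCtrl, and without it KNL1 was called, as it was by DESeq2 (adjusted p = 0.00405) and with the term for the split (-1.06, edgeR adjusted p = 1.29e-06). Within the sides the differences were -0.95 and -1.20.

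NDC80, NUF2, SPC24 and SPC25 form the NDC80 complex, the rod that holds microtubules at the kinetochore. NUF2 had 90.0, 91.8 and 111 CPM in siCtrl against 67.8 and 81.3 CPM in siFAM53C, without overlap, at -0.39 (SE 0.14, edgeR adjusted p = 0.210) and -0.43 with the term for the split (edgeR adjusted p = 0.0017). Its partner NDC80 overlapped at 70.1, 74.6 and 88.1 CPM and 62.7 and 83.2 CPM, at -0.089 (SE 0.16). SPC24 hardly varied, with 44.1, 45.6 and 41.8 CPM against 40.9 and 41.7 CPM, at -0.087 (SE 0.11). SPC25 had only 42, 38 and 43 counts against 28 and 28, which left its value of -0.83 with an SE of 0.39 (edgeR adjusted p = 0.332). Per kilobase of annotated exon, the siCtrl means were 29.0 for NUF2, 21.8 for NDC80, 15.4 for SPC24 and 1.10 CPM for SPC25, so subunits of 1 complex were listed at unlike levels. The length counts every annotated exon of a gene, used or not, and SPC25 was the lowest of the 56 on this scale, whose median was 32.6.

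CENPF, a large protein of the outer kinetochore and nuclear matrix in G2, had 311, 343 and 596 CPM in siCtrl and 276 and 370.0 CPM in siFAM53C. The library siCtrl replicate 3 was 0.87 above its fellows on the log2 scale, and the fold change of -0.37 had an SE of 0.31. It was called with the term for the split (-0.43, edgeR adjusted p = 0.00799). The remaining CENPA and CENPE were between -0.13 and -0.094.

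The largest group, 12 genes of spindle motors and microtubule-associated proteins, had 10 below 0 and a median of -0.13. TPX2, which activates Aurora A on spindle microtubules and was the most abundant of these by CPM, stood at 361, 356 and 414 CPM in siCtrl and 273 and 299 CPM in siFAM53C. The groups were apart, with a log2 fold change of -0.40 (SE 0.12, edgeR adjusted p = 0.140), and the gene was called by DESeq2 (adjusted p = 0.0382) and with the term for the split (-0.42, edgeR adjusted p = 0.00100). DLGAP5, which stabilises kinetochore fibres, had 136, 148 and 157 CPM against 124 and 132 CPM, also apart, at -0.20 (SE 0.11, edgeR adjusted p = 0.398). The other 10 lay between -0.17 and 0.12, and siCtrl replicate 3 was the highest library for 11 of the 12.

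For all 6 central spindle and cytokinesis genes, siCtrl replicate 3 was the highest and siFAM53C replicate 1 the lowest library. None passed the condition-only test, and within the sides of the split all 6 were below 0, with medians of -0.16 and -0.14. ANLN, the anillin scaffold of the contractile ring, had 541, 542 and 813 CPM in siCtrl and 520.2 and 774 CPM in siFAM53C. The upper libraries of each condition differed from the others by 0.59 and 0.57 on the log2 scale, and the difference between conditions was 0.034 (SE 0.24). KIF23, the kinesin of centralspindlin, had 183, 201 and 298 CPM against 159 and 211 CPM, at -0.30 (SE 0.23) and -0.37 with the term for the split (edgeR adjusted p = 0.00671). KIF20B, another midzone kinesin, had 156, 153 and 227 CPM against 139 and 173 CPM, at -0.20 (SE 0.20) and -0.26 with the term (edgeR adjusted p = 0.0429). Without siCtrl replicate 3 its value was 0.020.

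Genes of chromosome structure include condensin, which compacts mitotic chromosomes, topoisomerase II and the surfactant of the chromosome surface. All 8 were below 0, with a median of -0.19. NCAPH, the kleisin subunit of condensin I, was apart at 86.8, 81.6 and 90.7 CPM and 69.8 and 75.2 CPM, at -0.25 (SE 0.11, edgeR adjusted p = 0.276). SMC4, a core ATPase of condensin, had 328, 308 and 428 CPM against 272 and 312 CPM, at -0.28 (SE 0.16, edgeR adjusted p = 0.453), and 1796 of its exon bases are also covered by genes on the opposite strand. Both were called with the term for the split (edgeR adjusted p = 0.0388 and 0.0124). MKI67, which encodes Ki-67 and had the highest CPM of the 56, had 657, 675 and 1019.6 CPM against 682 and 839.7 CPM, and its -0.043 (SE 0.21) went to 0.20 without siCtrl replicate 3. The other 5 lay between -0.35 and -0.15.

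The anaphase ubiquitin system and the CKS proteins, small adaptors of cyclin-dependent kinases, had 7 genes, all below 0 with a median of -0.12, and in each the conditions overlapped. The sides of the split differed in sign, with a median of -0.31 between siFAM53C replicate 1 and siCtrl replicates 1 and 2 and of 0.033 between siFAM53C replicate 2 and siCtrl replicate 3. CDC20, the activator of the anaphase-promoting complex and the highest of the 56 per kilobase (117 CPM per kilobase in siCtrl), had 236, 228 and 245 CPM against 213 and 251 CPM, at -0.027 (SE 0.11). CDCA3, an adaptor of the ubiquitin ligase that degrades WEE1, had 93.4, 87.6 and 122 CPM against 67.4 and 104 CPM, at -0.24 (SE 0.22), and was called with the term for the split (-0.34, edgeR adjusted p = 0.0121). CKS1B, needed for p27 degradation, had 65.6, 81.0 and 69.3 CPM against 58.8 and 66.9 CPM, at -0.20 (SE 0.13, edgeR adjusted p = 0.514). Its paralog CKS2 had 58.5, 69.9 and 54.6 CPM against 48.3 and 64.0 CPM, at -0.12 (SE 0.16, edgeR adjusted p = 0.785). For these paralogs, siCtrl replicate 3 was 0.072 and 0.23 below the mean of replicates 1 and 2.

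FOXM1, the transcription factor that activates many of these genes, had 341, 321 and 384 CPM in siCtrl and 310 and 365 CPM in siFAM53C, at -0.048 (SE 0.13, edgeR adjusted p = 0.902), so its own mRNA did not differ beyond the spread. The ubiquitin ligase gene G2E3, expressed in G2 and M, was apart at 50.3, 52.3 and 65.9 CPM and 37.3 and 41.8 CPM, a log2 fold change of -0.51 (SE 0.15, edgeR adjusted p = 0.1303) that was called with the term for the split (-0.54, edgeR adjusted p = 0.00113). ANP32E, a chaperone that removes the histone variant H2A.Z, was apart at 188, 194 and 202 CPM and 159 and 182 CPM, at -0.19 (SE 0.11, edgeR adjusted p = 0.432).

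**Figure D4:**
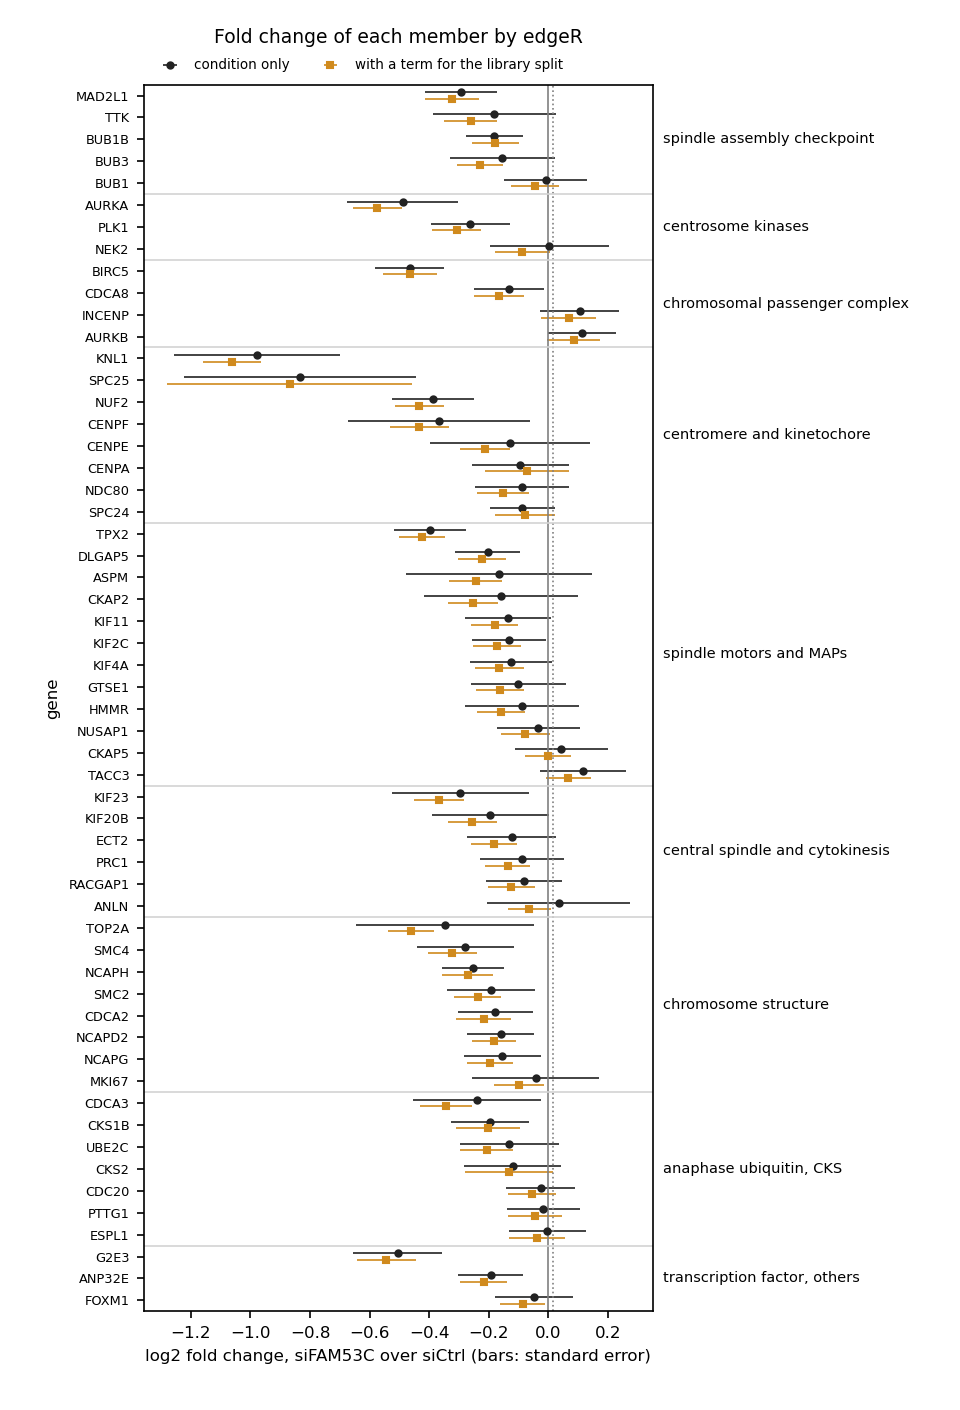
Log2 fold change of siFAM53C over siCtrl for each of the 56 genes with its standard error, from the fit with the condition only (circles) and from the fit with a term for the library split (squares), by structure. The dotted line marks the median of all genes tested (0.016), and 50 circles lie below 0, from -0.98 for KNL1 upward.

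Across the 9 groups, 15 members had both siFAM53C values under all 3 siCtrl values (26.8%) and 0 had the reverse, where 18.8% and 16.7% of all genes did. The 15 were spread over 7 groups, with 4 in the centromere and kinetochore and 0 in cytokinesis and in the anaphase and CKS group. The 17 called with the term for the split were AURKA, BIRC5, CDCA3, CENPF, CKAP2, G2E3, KIF20B, KIF23, KNL1, MAD2L1, NCAPH, NUF2, PLK1, SMC2, SMC4, TOP2A and TPX2, of which CKAP2, SMC2 and TOP2A are named only because they were called. For 18 members, another gene on the opposite strand covers some of the same exon bases, and where counting ignored strand the reads of both cannot be told apart.

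Beside the members, 57 further genes of mitosis were listed, of which 56 had enough counts. Of the 56 tested, 7 (12.5%) were lower and 0 higher by the same edgeR test, where 3.47% of all genes were lower, and 47 had values below 0, with a median of -0.23. Both other fits called more genes over the whole set as well. DESeq2 had 14 of the 56 lower (25%), against 6.98% of all genes. The split term gave 25 (44.6%), against 10.7% of all genes. Without siCtrl replicate 1 or 2, CENPQ alone was called. These fits called 209 and 180 of all genes lower, where the fit on all 5 libraries called 533. Leaving out a siFAM53C library leaves 1 in that condition, with no spread of its own, so only values are given. For the 6 genes described next, they ran from -1.60 (CENPQ) to -0.55 (SKA2) without siFAM53C replicate 1. Without siFAM53C replicate 2 they ran from -1.97 (CENPQ) to -0.54 (SKA2).

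CENPQ, a subunit of the inner kinetochore, fell by 1.77 on the log2 scale (SE 0.20, edgeR adjusted p = 0.00318), from 27.7, 29.5 and 23.0 CPM in siCtrl to 6.80 and 8.87 CPM in siFAM53C. MIS18A, which helps to load the centromeric histone CENP-A, fell by 0.98 (SE 0.17, edgeR adjusted p = 0.0196), from 24.2, 21.7 and 19.7 to 10.6 and 11.6 CPM. DSN1, a subunit of the MIS12 complex that links KNL1 and the NDC80 complex to the centromere, fell by 0.84 (SE 0.15, edgeR adjusted p = 0.0241), from 34.9, 39.8 and 37.8 to 18.5 and 23.3 CPM. These 3 are kinetochore or centromere genes, and siCtrl replicate 3 did not stand above its fellows as it did for KNL1.

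MELK, a protein kinase of dividing cells, fell by 0.63 (SE 0.099, edgeR adjusted p = 0.0151), from 122, 129.7 and 126 to 79.3 and 83.9 CPM. KIF15, a kinesin that backs up the bipolar spindle motor, fell by 0.57 (SE 0.11, edgeR adjusted p = 0.0377), from 40.2, 39.6 and 42.1 to 27.8 and 27.1 CPM. SKA2, of the complex that tracks microtubule ends, fell by 0.54 (SE 0.11, edgeR adjusted p = 0.0343), from 90.5, 99.0 and 86.9 to 63.3 and 63.2 CPM. The last of the 7, SGO1, which protects centromeric cohesin and is named here to complete the count, fell by 0.94 (edgeR adjusted p = 0.0421).

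**Figure D5:**
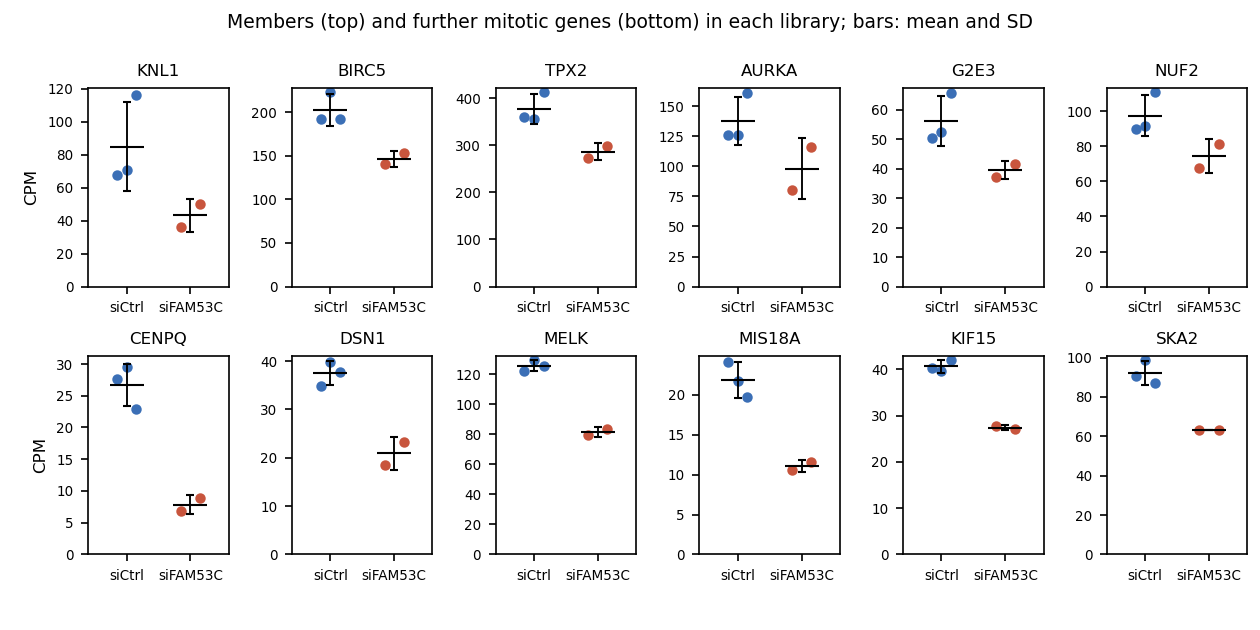
CPM in each library for 6 members (top row) and 6 further mitotic genes (bottom row), siCtrl in blue and siFAM53C in red, with the mean and SD of each group and axes that start at 0. In all 12 panels the siFAM53C points lie below the siCtrl points, and 1 siCtrl library of KNL1 is at 116 CPM where the others are at 67.9 and 71.0. This separation comes with the choice of genes. The members shown are among the 15 of 56 without overlap (26.8%, against 18.8% of all genes), and the further genes shown were called lower.

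Earlier results of these data tied the heptamer GACAAGA in 3′ UTRs to lower values, so the longest annotated 3′ UTR of each gene was searched for it on the transcribed strand. Of the 56 members it was present in 2 (3.57%), KNL1 and SPC24. Among the 12075 genes tested that had an annotated 3′ UTR, it was present in 1400 (11.6%). The members' 3′ UTRs were also shorter, with a median of 815 bases against 1566. The further genes held it in 10 of 56 (17.9%), among them DSN1, SGO1 and SKA2 of the 7 called lower. Over the 12075 genes, 212 of those called lower held it and 312 did not, so 3 of 7 is near the share among genes called lower. That share is not the one over all of the 12075: 212 of the 1400 with the heptamer were called lower, against 312 of the 10675 without it. The sites are shown with the heptamer in capitals, at their positions on hg38 in annotated 3′ UTR exons.
KNL1, chr15:40662522-40662528, plus strand: gtgttatcactGACAAGAacattagccatt
SPC24, chr19:11146222-11146228, minus strand: ggcaccagagaGACAAGAtacgagtgacat
DSN1, chr20:36751883-36751889, minus strand: cctggattcatGACAAGAaaggagtaagta
SGO1, chr3:20169765-20169771, minus strand: ttaggctcaggGACAAGAtaagtgactaat
SKA2, chr17:59111088-59111094, minus strand: atgtttggaagGACAAGAcaggaaagtgtt

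The members that hold the heptamer had unlike values, -0.98 for KNL1 and -0.087 for SPC24, and the 54 without it had a median of -0.15. BIRC5, TPX2, AURKA, G2E3 and NUF2 were without it. Over all genes tested that had an annotated 3′ UTR, the median was -0.18 with the heptamer and 0.020 without it. The median lengths of these 3′ UTRs were 3344 and 1386 bases. The heptamer was taken from earlier results of these data, so the difference between these medians of fold change is not independent of its choice. Among the further genes the medians were -0.57 with it (10 genes) and -0.20 without it (46 genes). Whether the heptamer had a part in the level of KNL1, DSN1, SGO1 or SKA2 was not tested.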

How the data were processed

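PolyA RNA of RPE-1 cells was measured in 5 libraries (3 siCtrl, 2 siFAM53C, grouped by the labels' treatment). The deposited values were whole-number counts per gene. To make them, the authors used cutadapt 2.10 for adapters, HISAT2 for alignment to hg38 (reverse strandedness) and featureCounts for assignment to genes. The annotation release and the strandedness of counting are not given in the sources used here. Library totals on genes lay between 19260124 and 25615415, a depth at which SPC25 had few counts.

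Counts were tested in R 4.3.3 with edgeR 4.0.16 over the whole table (filterByExpr with a minimum count of 10 and a minimum total of 15, TMM factors, condition only, robust quasi-likelihood test, Benjamini-Hochberg adjustment over 15341 genes, threshold 0.05 on the adjusted p). Log2 CPM used a prior count of 2. The fit was tested on simulated data. Symbols and positions came from GENCODE 44 on GRCh38 (56105 of 64252 identifiers matched), promoters from RefSeq.

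The members and lists were chosen with earlier results of these data known. The text names FAM53C, in each structure group the member with the highest mean CPM and the 2 with the smallest unadjusted p, the CKS pair, the NDC80 complex, and at most 6 further genes past the threshold by smallest p. Alternatives were DESeq2 1.42.0, limma-voom 3.58.1, other size factors and filters, a replicate block and each library left out.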

Additional observations from a re-analysis of the deposited data

How the results depend on the processing

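With 3 libraries against 2, calls moved with the settings. The members called lower numbered 0 in the condition-only fit, 3 by DESeq2 and 0 by limma-voom. Without a filter on low counts they numbered 4 (AURKA, BIRC5, G2E3 and KNL1). With the term for the library split they numbered 17, and at an unadjusted edgeR p under 0.05 they numbered 8. With 1 siCtrl library left out they numbered 0 to 2 (2, BIRC5 and KNL1, without siCtrl replicate 3). None was called higher in any setting. The further genes called lower numbered 14 by DESeq2, 4 with library totals only, 16 without the filter and 25 with the split term. With 1 siCtrl library left out they numbered 1 to 10. Over all genes, 209, 180 and 886 were called lower without siCtrl replicates 1, 2 and 3, and 1636 under the split term. The members' median ran from -0.31 to -0.0054 with 1 library left out, and the causes were not tested. With a replicate block by titles this median was -0.058, with 38 of 56 below 0. With a block by library names it was -0.18 (51 below 0), and with library totals only -0.076 (43 below 0). The medians of all genes tested under these settings were 0.013, 0.019 and 0.087. FAM53C was called in every setting that kept both siFAM53C libraries. Its log2 fold change was -1.42 without siFAM53C replicate 1 and -2.07 without siFAM53C replicate 2.

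The replicate numbers did not establish a pairing. Deviations of same-numbered libraries correlated at 0.17 and -0.28 by the titles and at 0.17 and 0.37 by the library names. With a replicate block by titles 2 members were called lower, and by library names 11 members and 21 further genes. Either block leaves fewer residual degrees of freedom than the term for the split. A siCtrl library alone in its block adds nothing to the contrast. Over all genes the replicate block by titles called 856 lower and 355 higher, and by library names 1350 and 642, where the fit without it called 533 and 75, DESeq2 890 and 257, library totals only 415 and 121, and the fit without a filter 961 and 375.

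Signs turned for 9 named members, none of them called in the condition-only fit. With library totals only, CDC20 was at 0.044, FOXM1 at 0.022 and MKI67 at 0.025. With the replicate block by titles, FOXM1 was at 0.023, KIF20B at 0.0032 and MKI67 at 0.19. ANLN was at -0.064 in the fit with the split and, likewise, under the replicate block by library names.
With 1 library left out, the values ran for ANLN from -0.28 to 0.29, BUB3 from -0.41 to 0.050, CDC20 from -0.15 to 0.083, CDCA3 from -0.59 to 0.033, CKS2 from -0.34 to 0.063, FOXM1 from -0.17 to 0.060, KIF20B from -0.37 to 0.020, MKI67 from -0.20 to 0.20 and NDC80 from -0.31 to 0.10.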
